A study of Mus musculus with 8 samples.

Results

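*Ptbp1* and 9 RNA-binding proteins of neurons, *Ptbp2*, *Elavl2*, *Elavl3*, *Elavl4*, *Rbfox1*, *Rbfox2*, *Rbfox3*, *Nova1* and *Srrm4*, were examined in fetal mouse brains after maternal choline deficiency. The 10 genes were selected by their symbols among the 33971 genes of the count table, each symbol stood on 1 identifier, and all 10 passed the filter on low counts that left 19367 genes for testing. Bulk poly-A RNA-seq had been made from whole brains of wild-type (WT) embryos at E14.5, 4 from dams on a choline-deficient diet (CDD) and 4 from dams on a normal chow diet (ND), both diets given to the pregnant dams. Per the methods, CDD was given from the mating day until the embryos were collected. All brains were WT for *Mfsd7c*, the choline transporter gene that the study is about, so maternal diet was the single difference that the labels give. The number of dams and litters behind the brains was not stated, so the p-values below measure only the spread between these samples. The authors list *Ptbp1* (ENSMUSG00000006498) at chr10:79690261-79700605 and *Ptbp2* (ENSMUSG00000028134) at chr3:119512391-119578115, on a build that is not named. The comparison asks how the regulators of neuronal splicing stood in a choline-restricted fetal brain.

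PTBP1 is a polypyrimidine tract-binding protein made in most cells and in neural progenitors, where it represses exons that neurons include. As cells become neurons, miR-124 lowers PTBP1, and its neuronal relative PTBP2 takes over until neurons mature. The Hu proteins (ELAVL2, ELAVL3 and ELAVL4), the RBFOX proteins, NOVA1 and SRRM4 then shape splicing and mRNA stability in neurons, and SRRM4 promotes the inclusion of very short neuronal exons. PTBP1 acts on the RNA of *Ptbp2*, and on its own RNA, by causing a 34-base exon to be skipped, after which the reading frame shifts and the transcript is decayed.

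That exon is shown because it joins the genes at either side of the switch. It is given for all 3 genes of the family from the GENCODE M21 annotation of GRCm38, 5′ to 3′ on the strand of the gene, with the exon in capitals between 20 bases of each neighbouring exon. In *Ptbp1* it is exon 9 of Ptbp1-206 (chr10:79862014-79862047, plus strand), in *Ptbp2* exon 10 of Ptbp2-213 (chr3:119724612-119724645, minus strand) and in *Ptbp3* exon 10 of Ptbp3-201 (chr4:59485339-59485372, minus strand), coding in each.
Ptbp1: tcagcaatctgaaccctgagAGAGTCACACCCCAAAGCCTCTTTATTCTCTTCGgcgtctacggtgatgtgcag
Ptbp2: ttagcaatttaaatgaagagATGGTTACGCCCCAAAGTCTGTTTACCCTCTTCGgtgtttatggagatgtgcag
Ptbp3: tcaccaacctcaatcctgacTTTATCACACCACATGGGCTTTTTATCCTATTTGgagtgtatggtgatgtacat
The *Ptbp2* exon is identical to that of *Ptbp1* at 26 of 34 positions (76.5%) and the *Ptbp3* exon at 22 (64.7%). Counted from 1 at the 5′ end of the exon, with the base of *Ptbp1* first, the *Ptbp2* differences are G2T, A3G, C6T, A9G, C18T, C21G, T26C and T27C. When the exon is left out of any of these 3 transcripts, 24 bases lie between the new junction and a stop codon. This stop codon ends 361 bases before the last exon junction. The annotation holds such transcripts, classed as targets of nonsense-mediated decay, for *Ptbp1* (Ptbp1-201 and Ptbp1-207) and *Ptbp2* (Ptbp2-208).

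The last 60 bases of the intron before the *Ptbp1* exon (chr10:79861954-79862013) are shown with the exon in capitals, since PTBP1 binds pyrimidine-rich RNA.
Ptbp1 intron end and exon: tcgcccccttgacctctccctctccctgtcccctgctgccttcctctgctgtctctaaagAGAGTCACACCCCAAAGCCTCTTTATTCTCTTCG
Of these intron bases 80% are C or T, against a median of 58.3% over 14189 windows of the same length before exons, of which 0.916% had at least this share. The windows come only from introns whose end an annotated transcript retains, as for *Ptbp1*, and not from all introns. The share of 80% is a description of the bases and not a binding site. The deposited values are counts per gene, which add the transcripts with and without the exon, so exon inclusion was not measured.

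Library totals were between 31770217 and 43121170 counted reads. Among 19367 genes tested with edgeR's quasi-likelihood test, 1710 (8.83%) differed between the diets at an adjusted p under 0.05 (Benjamini-Hochberg, the threshold used throughout), 822 higher in CDD and 888 lower, with a median log2 fold change of all genes of -0.004. Some libraries stood apart. CDD replicate 2 held 100.3 CPM (counts scaled to a common library size) of 6 summed hindbrain and spinal cord markers, against 3.74 to 7.72 in the other brains, and ND replicate 3 held 1643 CPM of 7 summed erythroid markers, against 470.2 to 885 elsewhere. CDD replicate 1 held 476 CPM of 5 summed choroid plexus markers, against 173 to 316 elsewhere, and CDD replicate 4, the lowest in those markers, differed most from another library over all genes (chi-square per degree of freedom up to 27.5, against ND replicate 3). Results that depend on these libraries are given with and without them.

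*Ptbp1*, the repressor of neuronal exons, was higher in CDD brains. Its levels were 144, 133, 137 and 139 CPM in CDD replicates 1 to 4 and 119, 130, 112 and 115 CPM in ND replicates 1 to 4. The diets did not overlap, with ND replicate 2 closest to the CDD group. The means were 138 ± 4.68 and 119 ± 7.99 CPM (SD, n = 4), a log2 fold change of 0.22 (SE 0.05, 95% interval 0.12 to 0.31) or 16.1%, with an adjusted p of 0.00836. It was the only one of the 10 genes that passed the threshold. That is 1 of 10 (0 of the 9 neuronal regulators), beside 8.83% of all genes tested and 4.24% called higher in CDD, so the count is close to the background. Non-overlapping CPM, which *Ptbp1* and *Ptbp2* showed, were found in 15.0% of all genes tested.

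The call for *Ptbp1* rests on single control libraries. Without ND replicate 3 the log2 fold change was 0.19 with an adjusted p of 0.0654, without ND replicate 4 it was 0.20 with an adjusted p of 0.0529, and without the CDD library rich in caudal markers it was 0.24 with an adjusted p of 0.00974. It was 0.20 with an adjusted p of 0.0306 without CDD replicate 1 and 0.21 with an adjusted p of 0.00660 without CDD replicate 4. Leaving out CDD replicate 2 and ND replicate 3 together gave 0.21 with an adjusted p of 0.0588. Without ND replicate 1 it was 0.22 with an adjusted p of 0.0418, and without ND replicate 2 it was 0.26 with an adjusted p of 0.00345. Over all genes, 471 were called without ND replicate 3 and 615 without ND replicate 4, against 1710 with all brains.

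*Ptbp2*, the neuronal relative, had 348, 337, 326 and 340 CPM in CDD replicates 1 to 4 and 326, 317, 300.0 and 316 CPM in the ND replicates. All CDD brains were above all ND brains, but CDD replicate 3 (326.34 CPM) and ND replicate 1 (326.30 CPM) were nearly equal. The log2 fold change was 0.10 (95% interval 0.01 to 0.20), with an unadjusted p of 0.0391 and an adjusted p of 0.181, and did not pass. The estimates for the repressor and for its neuronal replacement thus had the same sign.

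**Figure D1:**
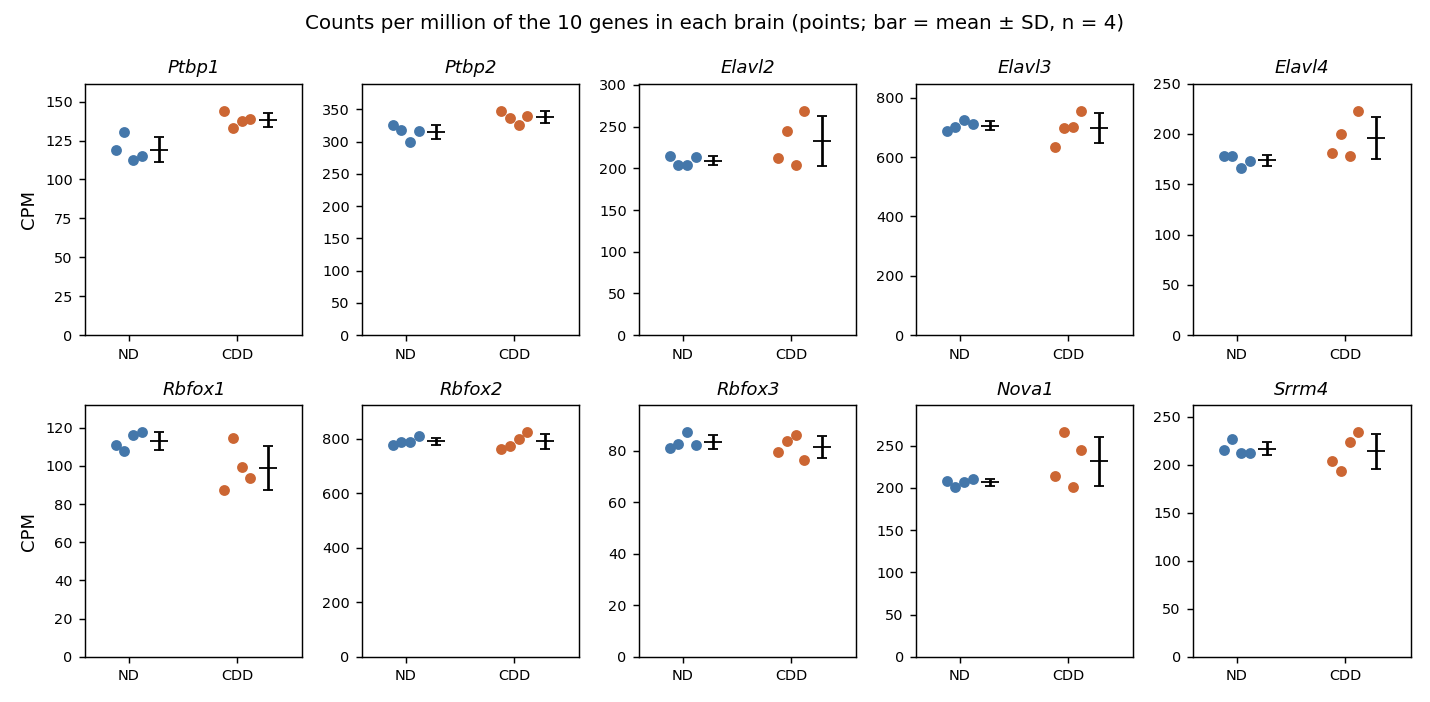
CPM (y axis, from 0) of each of the 10 genes in the ND brains (blue) and CDD brains (orange), 1 point per brain, with the mean and SD of 4 brains as a black bar. *Ptbp1* lies at 133 to 144 CPM in CDD and 112 to 130 CPM in ND, and the CDD points spread more widely than the ND points for *Elavl2*, *Elavl4* and *Nova1*.

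The 3 neuronal Hu genes encode proteins that bind AU-rich RNA and stabilise or splice neuronal transcripts. *Elavl2* had 212, 245, 204 and 269 CPM in CDD replicates 1 to 4 and 214, 205, 205 and 214 CPM in the ND replicates. Only CDD replicates 2 and 4 exceeded the ND range, and the log2 fold change of 0.15 (95% interval -0.004 to 0.31) had an adjusted p of 0.222. *Elavl4* had 181, 200.2, 178 and 223 CPM in CDD and 178, 178, 166 and 173 CPM in ND. Again CDD replicates 2 and 4 were the highest, and the log2 fold change of 0.17 (95% interval 0.04 to 0.30) had an adjusted p of 0.0852. *Elavl3*, the most abundant Hu gene here, had between 634 and 757 CPM in CDD and between 689 and 724 CPM in ND. Its CDD range enclosed the ND range, and the log2 fold change was -0.02 (95% interval -0.13 to 0.09, adjusted p 0.885), with a positive sign without CDD replicate 1. Without CDD replicate 3, *Elavl2* (0.21, adjusted p 0.0390) and *Elavl4* (0.22, adjusted p 0.0250) passed the threshold, and without CDD replicate 4 their estimates were smaller, at 0.07 (adjusted p 0.481) and 0.10 (adjusted p 0.185).

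The RBFOX proteins bind the motif UGCAUG beside alternative exons, and *Rbfox3* encodes the neuronal nuclear antigen NeuN. *Rbfox1* had 87.3, 114, 99.5 and 93.8 CPM in CDD replicates 1 to 4 and 111, 108, 116 and 118 CPM in the ND replicates. CDD replicates 1, 3 and 4 were below every ND brain, whereas CDD replicate 2 was within the ND range. Its log2 fold change was -0.20 (95% interval -0.34 to -0.05) with an adjusted p of 0.0875, which did not pass. Without CDD replicate 2, the library rich in caudal markers, it was -0.27 with an adjusted p of 0.0050, and without that library and ND replicate 3 it was -0.26 with an adjusted p of 0.0311. Without CDD replicate 4 it was -0.17 with an adjusted p of 0.355, and without CDD replicate 1 it was -0.14 with an adjusted p of 0.165. The result for *Rbfox1* thus depended on which CDD library was left out. *Rbfox2*, which is also expressed outside neurons, had 763 to 824 CPM in CDD and 777 to 809 CPM in ND, with a log2 fold change of -0.0006 (95% interval -0.10 to 0.10, adjusted p 0.996) whose sign changed with RLE scaling and without single brains. *Rbfox3* had 76.4 to 86.1 CPM in CDD and 80.9 to 87.1 CPM in ND, with a log2 fold change of -0.03 (95% interval -0.13 to 0.07, adjusted p 0.746). The intervals of *Rbfox2* and *Rbfox3* end below the 0.22 estimated for *Ptbp1*, but the difference from *Ptbp1* was not tested.

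*Nova1*, which binds YCAY repeats and regulates exons of synaptic transcripts, had 214, 266, 201 and 245 CPM in CDD replicates 1 to 4 and 208, 201, 207 and 210 CPM in the ND replicates. As for *Elavl2* and *Elavl4*, CDD replicates 2 and 4 were the highest of the 8 brains. Its log2 fold change was 0.16 (95% interval 0.01 to 0.31, adjusted p 0.165). It was 0.09 with an adjusted p of 0.400 when CDD replicate 2 was left out and 0.23 with an adjusted p of 0.0175 when CDD replicate 3 was left out. *Srrm4*, the activator of neuronal microexons, had 204, 194, 223 and 234 CPM in CDD and 216, 226, 212 and 213 CPM in ND. CDD brains lay on both sides of the ND brains, and the log2 fold change was -0.02 (95% interval -0.13 to 0.09, adjusted p 0.871), with a sign that changed without CDD replicate 1, CDD replicate 2 or ND replicate 2.

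Of the 9 neuronal regulators, 4 thus had positive estimates, 5 had estimates below 0, and 0 passed edgeR's test at this threshold. DESeq2 also called only *Ptbp1* among the 10, and edgeR gave unadjusted p-values under 0.05 for *Ptbp2*, *Elavl4*, *Rbfox1* and *Nova1*, 4 of the 9 neuronal regulators beside 23.9% of all genes tested. In DESeq2 *Elavl2* was also under 0.05 before adjustment (p 0.0380). CDD replicates 2 and 4 held the highest *Elavl2*, *Elavl4* and *Nova1*, and 8 of the 10 genes had a larger SD in CDD than in ND, with a median ratio of 2.62. Over all genes tested the SD was larger in CDD for 68.2%, with a median ratio of 1.41, and *Ptbp1* and *Ptbp2* were the exceptions among the 10.

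**Figure D2:**
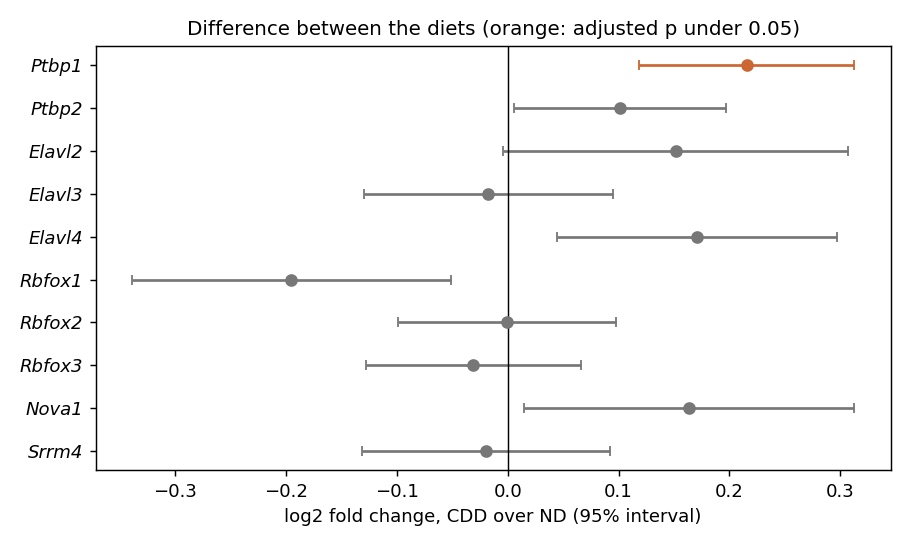
Log2 fold change of CDD over ND (x axis) for each of the 10 genes, with its 95% interval. *Ptbp1* at 0.22 is the only estimate with an adjusted p under 0.05, and the intervals of *Elavl3*, *Rbfox2*, *Rbfox3* and *Srrm4* are centred near 0.

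The balance between *Ptbp1* and each neuronal regulator was read within each library, as the log2 ratio of their counts, which does not depend on library scaling. *Ptbp1* stood at 0.414, 0.394, 0.421 and 0.409 counts per count of *Ptbp2* in CDD replicates 1 to 4 and at 0.364, 0.411, 0.375 and 0.364 in the ND replicates. Only CDD replicates 1 and 3 exceeded all ND brains. The mean log2 ratio was higher in CDD by 0.12, with an exact two-sided permutation p of 0.0857 over all divisions of the 8 brains (n = 4 per diet), where the smallest p possible was 0.0286. A shift of the balance between *Ptbp1* and *Ptbp2* was therefore not shown.

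Against the other neuronal regulators the ratio was described without a test. The CDD brains all exceeded the ND brains for *Ptbp1* over *Rbfox2* (difference of the mean log2 ratios 0.22), over *Rbfox3* (0.25) and over *Srrm4* (0.24). The same held for the ratio of *Ptbp1* to 29.5% of the other 19366 genes tested, so 3 of 9 is near the background. *Ptbp1* over *Rbfox1* had the largest difference of the 9 (0.42), with 1.65, 1.16, 1.38 and 1.48 counts of *Ptbp1* per count of *Rbfox1* in CDD replicates 1 to 4 and 1.07, 1.21, 0.966 and 0.976 in the ND replicates. CDD replicate 2 again lay among the ND brains. The difference for *Elavl3* was 0.24, with 3 of 4 CDD brains above all ND brains, and those for *Elavl2*, *Elavl4* and *Nova1* were 0.07, 0.05 and 0.06, with 2 of 4 CDD brains above all ND brains in each. These 3 small differences moved with single brains, from 0.0128 (without CDD replicate 1) to 0.146 (without CDD replicate 4) for *Elavl2*, from -0.0038 to 0.115 without the same brains for *Elavl4*, and from 0.00022 (without CDD replicate 3) to 0.15 (without CDD replicate 2) for *Nova1*.

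**Figure D3:**
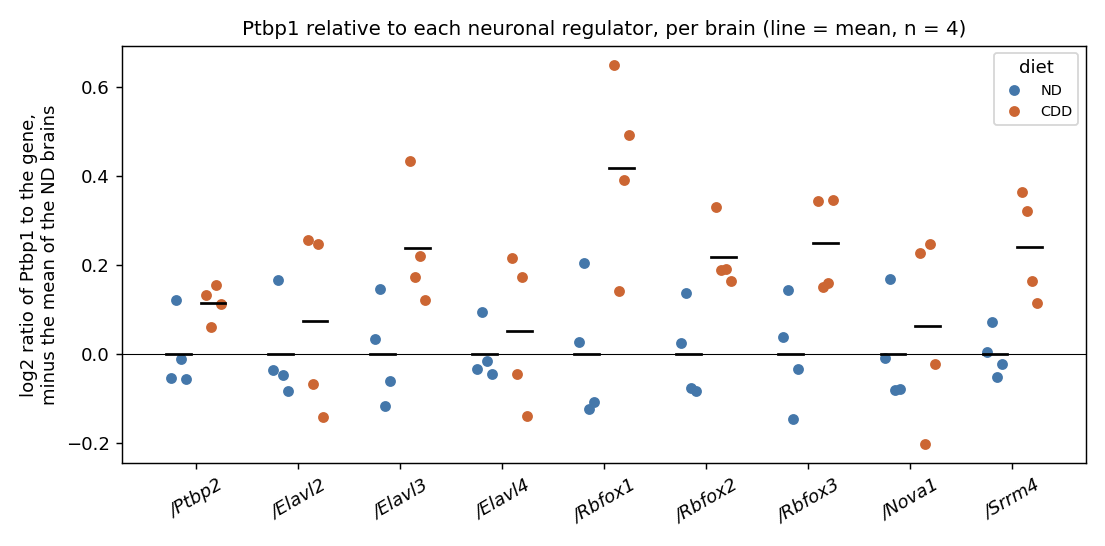
Log2 ratio of *Ptbp1* counts to those of each neuronal regulator (x axis) in each brain, minus the mean of the 4 ND brains for that pair (y axis), with group means as black lines. The CDD points (orange) clear all ND points (blue) for *Rbfox2*, *Rbfox3* and *Srrm4*, and overlap them for the other 6 genes.

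Levels between genes were compared per gene length, as the FPKM (fragments scaled to gene length and sequencing depth) that the authors deposited. Averaged over the 8 brains, *Elavl3* (101 ± 5.30 FPKM, SD) and *Rbfox2* (96.7 ± 2.71) were the highest, and their ranges overlapped. *Ptbp2* (35.4 ± 1.72) and *Elavl4* (34.1 ± 3.53) followed, also with overlapping ranges. *Ptbp1* (27.0 ± 2.54) came next, at 23.5 to 30.1 FPKM, just below the lowest *Elavl4* value of 30.6 FPKM. *Ptbp1*, *Elavl2* (26.5 ± 2.94), *Nova1* (24.9 ± 2.73), *Srrm4* (24.7 ± 1.52) and *Rbfox1* (24.0 ± 2.51) overlapped from each gene to the next, and *Rbfox3* was separate and lowest (14.1 ± 0.57). The E14.5 brain thus held RNA of the progenitor repressor and of all 9 neuronal regulators at levels above those of 79.5% of the genes tested.

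**Figure D4:**
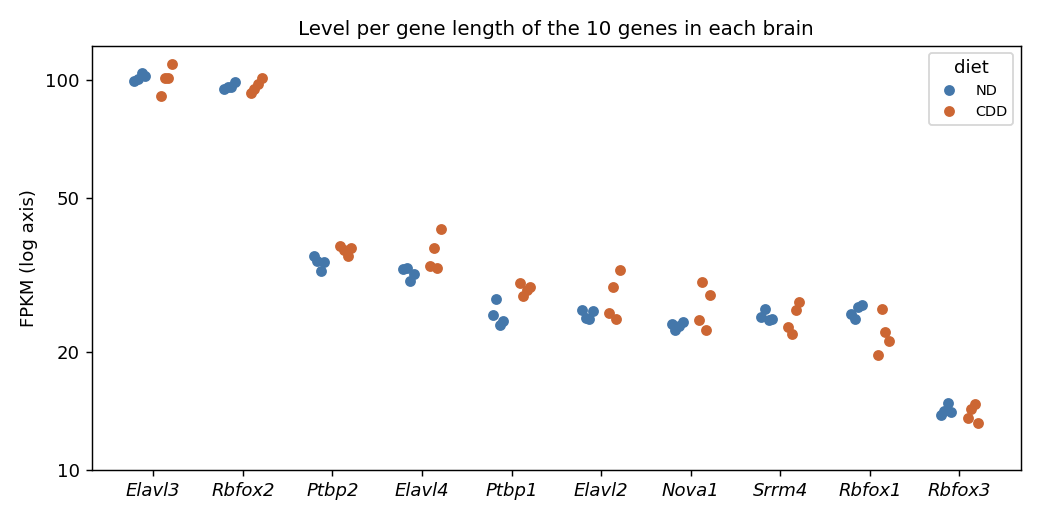
FPKM of the 10 genes (log axis) in each ND brain (blue) and CDD brain (orange), ordered by mean. *Elavl3* and *Rbfox2* lie between 91.1 and 110 FPKM, the middle 7 genes between 19.7 and 41.6 FPKM, and *Rbfox3* between 13.2 and 14.8 FPKM.

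Within the polypyrimidine tract-binding family, *Ptbp2* made up 50.4, 50.75, 50.2 and 49.7% of the summed FPKM of *Ptbp1*, *Ptbp2* and *Ptbp3* in CDD replicates 1 to 4 and 53.4, 50.79, 52.4 and 53.1% in the ND replicates. Its share was lower in every CDD brain than in any ND brain, although CDD replicate 2 and ND replicate 2 were nearly equal. The shares of *Ptbp1* (38.7 to 40.9% in CDD, 37.4 to 40.4% in ND) and *Ptbp3* overlapped. So did the share of every gene within the Elavl, Rbfox, Nova and Srrm families, taken in the same way. The *Ptbp2* share follows from *Ptbp1* and *Ptbp3* as well, and no test or background was computed for it. *Ptbp3*, the third paralog, which is best known from blood cells, was itself higher in CDD (46.7 to 60.9 CPM against 44.5 to 46.0 CPM), with a log2 fold change of 0.26 (SE 0.07) and an adjusted p of 0.0184. The broadly expressed Hu gene *Elavl1* (HuR) had a log2 fold change of 0.12 with an adjusted p of 0.0651. Of the other neuronal paralogs, *Nova2* stood at -0.01 (adjusted p 0.963) and *Srrm3* at -0.04 (adjusted p 0.622).

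Splicing regulators outside the 10 genes were described by list. None of 10 other neuronal splicing regulators (0 higher and 0 lower in edgeR's test, *Nova2*, *Srrm3*, *Celf2* to *Celf6*, *Khdrbs2*, *Khdrbs3* and *Mbnl2*) passed, 1 of them (*Celf5*) had an unadjusted p under 0.05 beside 23.9% of all genes tested, and the list had a median log2 fold change of -0.04, with all 10 estimates below 0. Of 11 broadly expressed relatives and partners of the 10 genes, 3 passed, all higher in CDD, with a median of 0.12 and all 11 estimates above 0. These were *Ptbp3*, *Msi2*, an RNA-binding protein of progenitors (0.24, adjusted p 0.00926), and *Qk*, which regulates splicing in progenitors and glia (0.23, adjusted p 0.0203). Of 23 hnRNP genes, whose proteins bind and often repress exons, 3 were higher and 0 lower, with a median of 0.10 and 22 estimates above 0. The 3 were *Hnrnpf* (0.14, adjusted p 0.0294), *Hnrnph2* (0.14, adjusted p 0.0301) and *Hnrnpm* (0.17, adjusted p 0.0474). Of 13 SR protein genes, which mostly promote exon inclusion, only *Srsf12* passed, lower in CDD (-0.28, adjusted p 0.0106), with a list median of 0.02. Against these, 4.24% of all genes tested were called higher, 49.1% had estimates above 0, and the median was -0.004. Of these other regulators 7 were called here, 16 with DESeq2 and its own filter and scaling, 2 without ND replicate 1 or ND replicate 4, and 1 without ND replicate 3, without CDD replicate 2 and ND replicate 3, or with FPKM.

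**Figure D5:**
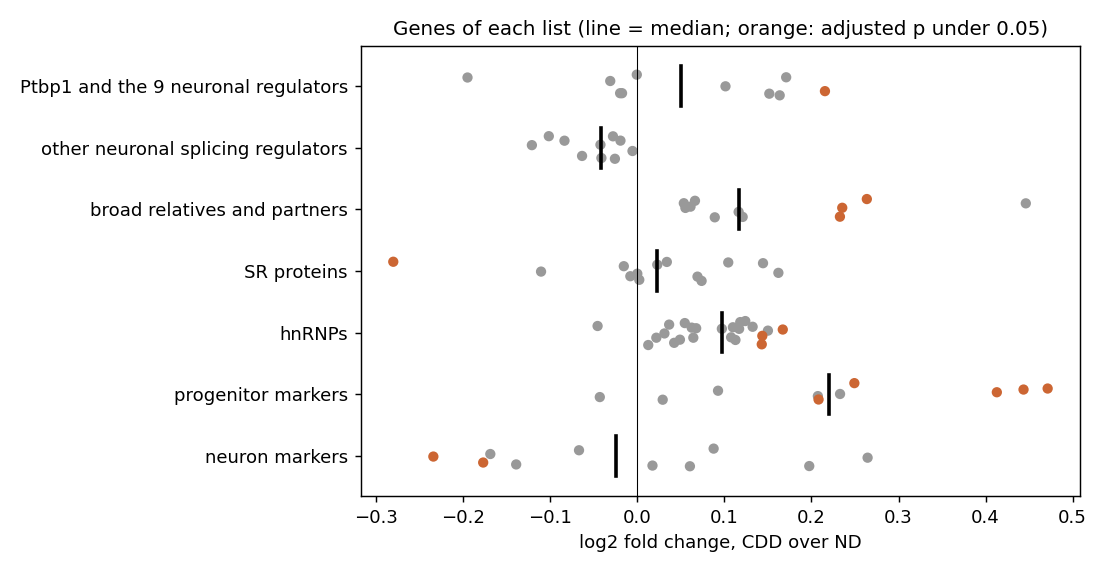
Log2 fold change of CDD over ND (x axis) for the genes of each list, 1 point per gene, with the list median as a black line and genes with an adjusted p under 0.05 in orange. All 10 other neuronal regulators lie below 0, and 11 of 11 broad relatives and 22 of 23 hnRNP genes lie above 0.

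Genes upstream and downstream of the switch did not pass the test. The log2 fold change was 0.09 (adjusted p 0.366) for *Rest*, the repressor of neuronal genes outside neurons, and 0.01 (adjusted p 0.911) for its corepressor *Rcor1*. The miR-124 host transcripts *Mir124-2hg* and *Mir124a-1hg* had 0.11 (adjusted p 0.0994) and -0.11 (adjusted p 0.786), which are levels of the host RNA and not of the mature miRNA. *Dlg4* (PSD-95) and *Gabbr1*, whose transcripts PTB proteins are known to splice, stood at -0.06 (adjusted p 0.441) and -0.02 (adjusted p 0.838).

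Some markers of progenitors were higher in CDD, as *Ptbp1* was. Of 10 progenitor markers, 5 were higher in CDD (*Nes*, *Top2a*, *Mki67*, *Pax6* and *Vim*) and 0 lower, beside 4.24% of all genes tested called higher. *Hes1* (0.23), *Hes5* (0.21), *Sox2* (0.09), *Slc1a3* (0.03) and *Fabp7* (-0.04) were not called. The summed level of the 10 was 2075 to 2402 CPM in CDD and 1840 to 1960 CPM in ND, with no marker at 0. *Ptbp1* per summed progenitor marker had a mean log2 ratio of -4.01 ± 0.10 in CDD and -3.98 ± 0.05 in ND (SD, n = 4), and the diets overlapped. Of 10 neuron markers, 0 were higher and 2 lower (*Snap25* and *Gap43*), beside 888 lower among all 19367 genes tested. Estimates were above 0 for 5 of the 10, among them *Nefm* (0.26), *Nefl* (0.20) and *Map2* (0.09), and the list median was -0.02. CDD replicate 2, rich in caudal markers, held 195 CPM of *Nefm*, against 102 to 123 CPM in the other CDD brains. For *Nefl* it held 142 CPM, against 73.3 to 88.4 CPM. Below 0 and not called were *Mapt* (-0.17, adjusted p 0.0600), *Stmn2* (-0.14, adjusted p 0.108) and *Syt1* (-0.07, adjusted p 0.412). The summed level was 7239 to 8074 CPM in CDD and 7547 to 7926 CPM in ND, with no marker at 0. Per summed neuron marker, *Ptbp1* was higher in CDD by 0.24 on the log2 scale, with overlapping brains, and *Rbfox1* was lower in CDD by 0.18, with no overlap (-6.29 ± 0.13 against -6.11 ± 0.03). *Elavl4* and *Nova1* also did not overlap per summed neuron marker, and were higher in CDD by 0.18 (-5.30 ± 0.09 against -5.49 ± 0.08) and by 0.17 (-5.06 ± 0.12 against -5.24 ± 0.02). The remaining genes overlapped. Per summed progenitor marker, *Ptbp2* (-0.14), *Elavl3* (-0.27), *Rbfox1* (-0.45), *Rbfox2* (-0.25), *Rbfox3* (-0.28) and *Srrm4* (-0.27) were lower in CDD without overlap, whereas *Elavl2*, *Elavl4* and *Nova1* overlapped. The summed progenitor level was itself higher in every CDD brain than in any ND brain. A gene with no diet difference therefore comes out lower in CDD in this ratio. The share of all genes tested without overlap in such ratios was not computed, so these counts are not read as a result. In bulk tissue, fewer cells of a type and less RNA per cell cannot be told apart.

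The genes whose log2 CPM followed *Ptbp1* most closely over the 8 brains, among the 10719 tested genes that averaged 10 CPM or more, were *Hnrnpf* (r = 0.992), *Phactr4* (0.989), *Boc* (0.985), *Mcm3* (0.982) and *Neurog2* (0.982). MCM3 is a subunit of the replicative helicase, BOC is a coreceptor of Hedgehog ligands and NEUROG2 is a proneural transcription factor. These values are given as a description, since all points share the diet difference and the library scaling. *Ptbp2* had r = 0.84 with *Ptbp1* and *Rbfox1* had r = -0.85. With the diet means removed these were 0.51 and -0.70.

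Reads of some of the 10 genes could belong to overlapping or similar genes, and the strand setting of the counting was not given in the sources used here. In GENCODE M21, exons of *Ptbp1* overlap those of *Plppr3*, a gene of neurons on the other strand, which had 341 to 466 CPM in CDD and 434 to 459 CPM in ND (log2 fold change -0.14, adjusted p 0.297). Of the 50-base stretches of *Ptbp1* transcripts, 4.75% also occur in other genes, among them *Gm4900*, which had 2 to 8 counts per brain. The same share was 3.11% for *Elavl3*, 3.00% for *Nova1* and 0 for the other 7 genes, and none was shared between any pair of the 10. *Srrm4* exons overlap the antisense transcript *Srrm4os*, which had 13.6 to 19.1 CPM in CDD and 15.0 to 17.0 CPM in ND. Exons of *Ptbp1* also overlap *E130317F20Rik* and *Gm17134* on the other strand. On the same strand, exons of *Elavl3* overlap *Gm49318* and those of *Nova1* overlap *Gm33869*, whatever the strand setting. *Gm33869* had 10.2 to 11.9 CPM in CDD and 8.16 to 10.4 CPM in ND (log2 fold change 0.19, adjusted p 0.236).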

How the data were processed

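For 4 CDD and 4 ND brains the authors deposited raw counts of reads per gene, a normalized signal (the counts divided by a size factor per library) and FPKM values made with the listed gene length. The submitters' processing notes name HISAT2 2.0.5, featureCounts 1.5.0-p3 and DESeq2 1.20.0, and the genome build is not given in the sources used here. Columns of the authors' own comparison (fold changes and p-values) were not used.

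Raw counts were filtered with filterByExpr, scaled by TMM and tested with the robust quasi-likelihood test of edgeR 4.0.16 (R 4.3.3), with diet as the single term, all 8 brains and Benjamini-Hochberg adjustment over 19367 genes (threshold 0.05). Within-library ratios used log2(count + 0.5) of 2 genes, and FPKM served for levels between genes. The lowest chi-square per degree of freedom between any pair of brains was 3.53, so no library was a copy of another. In a simulation of this comparison with 19367 genes, true log2 changes of 0.2 were called for 6 of 68 genes, of 0.5 for 35 of 61 and of 1 for 56 of 69. In it 8 unchanged genes were called. Far fewer genes were changed in the simulation than the 1710 called in the data. The adjusted threshold was therefore harder to reach there, and these rates do not carry over to the data.

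The 10 genes and all lists were chosen with earlier results of these data known. Named genes were the 10, fixed paralogs, upstream and PTB-spliced genes, up to 4 called genes with the smallest p per list of regulators, called markers, and the 5 genes closest to *Ptbp1*. *Plppr3*, *Gm4900*, *Srrm4os*, *Gm49318*, *Gm33869*, *E130317F20Rik*, *Gm17134*, *Rcor1*, *Mir124-2hg*, *Mir124a-1hg*, *Celf5* and the markers that were not called were named after results were seen. *Raver1* was not analysed here. Marker lists for macrophages (2 of 7 lower, 0 higher), endothelium (1 of 6 lower), mural and meningeal cells (1 of 6 higher, 2 lower), choroid plexus (0 of 5 called), erythroid cells (2 of 7 higher), and caudal tissue and liver or muscle (0 called among 2 and 1 genes tested) were counted in the same fit. Over all 19367 genes tested, 822 were called higher and 888 lower. The erythroid genes called were *Hbb-y* (2.24) and *Hba-x* (1.67). *Hba-a1* (-0.64), *Hbb-bt* (-0.62) and *Alas2* (-0.50) had estimates below 0 and were not called, and 4 of the 7 estimates were above 0.

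Alternatives were DESeq2 1.42.0, limma-voom (limma 3.58.1), RLE and upper-quartile scaling, other filters, a replicate block, a gene length offset, log2(FPKM + 1), thinned libraries, an adjusted p under 0.01, a pseudocount of 5, TPM, and brains left out.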

Additional observations from a re-analysis of the deposited data

Results flagged for a closer look

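In the ratio of *Ptbp1* to *Rbfox2*, CDD replicate 1 stood apart from the other CDD brains, with a log2 ratio of -2.40 against -2.54, -2.54 and -2.57 in CDD replicates 2 to 4. It was picked by the gap between the highest value and the next relative to the range of the group. Among 38 groups of 4 brains examined in this way, 1 was picked, where chance would give about 1.9.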

How the results depend on the processing

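*Ptbp1* was higher in CDD in all 20 alternatives. Its call was lost with log2(FPKM + 1) (0.21, adjusted p 0.0524) and without CDD replicate 2 and ND replicate 3 together (0.21, adjusted p 0.0588), and leaving out single brains gave 0.19 to 0.26 with adjusted p-values of 0.00345 to 0.0654. Of the 10 genes, 5 were called with no filter on low counts (*Ptbp1*, *Elavl2*, *Elavl4*, *Rbfox1* and *Nova1*), 2 with the length offset and replicate block, 0 with FPKM and 0 to 4 when single brains were left out, while *Rbfox1* was the 1 gene called without CDD replicate 2 and ND replicate 3. Of the other splicing regulators 7 were called, 16 with DESeq2, 12 with the length offset, 11 with that offset and the block, 1 with FPKM, 1 at an adjusted p under 0.01, 1 without both of these libraries, and 1 to 9 with single brains left out. Of all genes, 519 were called with FPKM, 477 at an adjusted p under 0.01, 418 without both libraries and 471 to 2495 with single brains left out.

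Estimates near 0 changed sign. *Rbfox2* was 0.0040 with DESeq2, 0.0026 with RLE, 0.00037 with no filter, 0.0032 with FPKM, 0.0072 without both libraries and -0.022 to 0.0197 with single brains left out. *Srrm4* was 0.01 without both libraries and -0.0662 to 0.026 with single brains left out, *Elavl3* -0.0599 to 0.0296, and *Ptbp1* over *Elavl4* -0.0038 to 0.11. The cause was not tested.

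As TPM the order of levels did not change, with 112 for *Ptbp1*, 147 for *Ptbp2*, 110 for *Elavl2*, 421 for *Elavl3*, 142 for *Elavl4*, 99.6 for *Rbfox1*, 402 for *Rbfox2*, 58.6 for *Rbfox3*, 103 for *Nova1* and 103 for *Srrm4*, on another scale by construction.

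The replicate numbers were not taken as pairs, since the labels give no shared litter or batch and 1 of the 4 same-numbered correlations of deviations was below 0 (-0.13, the others 0.10 to 0.23). As a hint from the data and not the design, 6 of 8 brains were closest to their own number. With the replicate block 2 of the 10 genes were called, *Ptbp1* and *Elavl4* (0.17, adjusted p 0.0483), and 1812 genes in all. The sign-flip test of *Ptbp1* over *Ptbp2* by number gave an exact p of 0.250, where 0.125 was the smallest possible. Thinning all libraries to the smallest total changed no call of the 10 genes.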
